A study of Ovis aries with 26 samples.

Results

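The cells described here are cells of the developing sheep pancreas, proposed as stellate or pericyte-like mural cells, that carried smooth muscle alpha-actin and had no detected enteric smooth muscle actin or desmin. They were chosen by the UMIs of 7 genes in single cells: at least 2 UMIs of ACTA2 (smooth muscle alpha-actin), at least 2 of TAGLN (transgelin, an actin-binding protein) and at least 1 of MYLK (myosin light chain kinase), with no UMI of ACTG2 (enteric smooth muscle actin), DES (desmin), PECAM1 (an endothelial marker) or CHGA (chromogranin A, an endocrine marker). A UMI is a molecular tag that counts 1 captured RNA molecule once. The rule was applied to cells with over 200 and under 6000 detected genes and under 25% mitochondrial UMIs, and it found 624 cells among 79510 kept cells, or 0.785%. They are called ACTA2+DES- cells below. Because the 7 genes chose the cells, their levels are not results, and they were left out of every test.

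The cells came from 26 single-cell libraries of fresh, enzyme-digested pancreas from 23 American Romney sheep, sampled at 80 and 120 days of gestation and at term. At 80 days the non-CF group held 2 wild-type (WT) and 2 heterozygous (HZ) male fetuses, naturally bred, the latter with a targeted exon 11 allele of CFTR, and the CF group held 3 male CFTR-/- fetuses cloned by nuclear transfer from a single male neonatal fibroblast line with a targeted exon 2. At 120 days there were 3 naturally bred WT fetuses (replicates 1 and 3 male, replicate 2 female). The CFTR-/- fetuses of that age were 4 cloned males of the same line and 2 naturally bred females from matings of exon 2 carriers. At term there were 4 naturally bred WT lambs (replicate 3 female, the others male) and 3 CFTR-/- lambs. Of the CFTR-/- lambs, replicates 1 and 2 were naturally bred females and replicate 3 was a cloned male. CFTR encodes the epithelial chloride channel that is defective in cystic fibrosis. At 80 days genotype and cloning cannot be told apart, nor can they in cloned CFTR-/- against WT fetuses at 120 days. Among the CFTR-/- animals breeding coincided with labelled sex. The cloned fetuses share a donor line and some shared a recipient ewe, so they are closer to each other than unrelated animals. Per the study, non-CF replicates 2 to 4 at 80 days came from a single pregnancy and the naturally bred 120-day CFTR-/- fetuses were twins, and the animal numbers of WT replicates 1 and 2 at 120 days share a stem. The tests treat all of these as independent animals. The WT animals with at least 10 of the cells at 120 days and at term (replicates 1 and 3, and 2 and 4) were all labelled male. Naturally bred CFTR-/- against WT therefore coincides with sex in the gene tests at 120 days. Only the CFTR-/- group at term held both sexes in the gene tests. A sex term in the fit thus rests on its naturally bred females against its cloned male.

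Mural cells sit around or beside vessels. Pericytes wrap capillaries and small venules, answer endothelial PDGF-B through the receptor PDGFRB and Notch ligands through NOTCH3, and adjust vessel tone through ion channels and peptide receptors. Pancreatic stellate cells lie around acini and ducts. In the quiescent state they store vitamin A and share many genes with pericytes, and in the activated state they express smooth muscle actin and lay down fibrillar collagen, which is the cell behaviour behind pancreatic fibrosis.

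The libraries held between 7841217 and 171256169 UMIs, and the kept cells of a library had a median of 3425 to 24633 UMIs. The ACTA2+DES- cells had a median of 5780.5 UMIs and 2054 genes, with library medians from 2752 to 16682 UMIs. Their summed UMIs per animal ran from 65805 to 862857 over the 19 animals with at least 10 of them (7 at 80 days, 7 at 120 days and 5 at term). WT term replicates 1 and 3, with 1 and 3 cells, and WT replicate 2 and cloned CFTR-/- replicate 4 at 120 days, with 6 each, fell short of that minimum. Pairs of libraries from the same animal shared 5 to 9 barcodes and no ACTA2+DES- barcode recurred in another library. Among 2262 immune-like cells, which should lack ACTA2, 75 (3.32%) held at least 1 ACTA2 UMI, 7 held at least 2 and 1 passed the whole rule. The median over libraries of their median depth was 9691.25 UMIs. CFTR cannot check the genotype labels, because the 3' tags lie outside the targeted exons. Its UMIs in ACTA2+DES- cells numbered 5, 0 and 2 in the non-CF groups at 80 days, 120 days and term, against 92, 27 and 203 in the cloned 80-day, cloned 120-day and term CFTR-/- groups and 2 in the naturally bred fetuses. Per summed UMIs these were 8.27, 0 and 4.80 CPM (counts per 1000000 UMIs) against 105, 33.0 and 102 CPM, and 9.26 CPM in the naturally bred fetuses. The other kept cells differed too. Per animal they held 21.9 to 41.0, 16.5 to 27.4 and 6.95 to 32.1 CPM in the non-CF groups. The same CFTR-/- groups held 67.0 to 146, 29.9 to 148 and 15.8 to 57.3 CPM, and the naturally bred fetuses 13.1 to 20.8 CPM.

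All 14 pericyte genes in the files but ANPEP (an aminopeptidase) stood higher in these cells than in all other kept cells. So did CALD1, MGP and EDNRB, the listed mural markers outside the rule, while the genes of quiescent stellate cells were mixed. The summed duct, mesothelial and Schwann lists also stood higher than in all other kept cells, so standing higher is not particular to mural genes. Levels are given as CPM, counts per 1000000 UMIs summed over the cells concerned, and they are compared between cells, not between genes. A pair of reference classes was set beside the ACTA2+DES- cells. The 2007 smooth muscle-like cells met the same minima for ACTA2, TAGLN and MYLK but held a UMI of ACTG2 or DES, and the 3894 fibroblast-like cells held at least 2 UMIs each of COL1A1 and DCN and none of ACTA2. The smooth muscle-like cells outnumbered the ACTA2+DES- cells in all 26 libraries.

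CALD1 (caldesmon, which regulates actin-myosin contraction) stood at 1708 CPM in the ACTA2+DES- cells, 3484 in smooth muscle-like, 642 in fibroblast-like and 63.3 in all other kept cells. MGP (matrix Gla protein, an inhibitor of calcification) stood at 5396, 7835, 6944 and 90.8 CPM in the same order. EDNRB (endothelin receptor B) stood at 115, 91.8, 20.0 and 6.97 CPM. EDNRB was detected in 42.3%, CALD1 in 98.2% and MGP in 86.5% of the ACTA2+DES- cells, and the last 2 in 41.0% and 15.2% of the other kept cells. These 3 markers are not genes of the rule, but they were listed with earlier results of these data known, so they are no independent support. CALD1 is also a contractile gene, like those the rule asks for. All 3 stood higher than in the bulk of the pancreas. CALD1 and MGP were at least as high in smooth muscle-like cells, and MGP did not separate the cells from fibroblast-like cells.

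Pericyte genes were shared with the smooth muscle-like class. RGS5, a regulator of G-protein signalling and a classical pericyte marker, stood at 169 CPM in the ACTA2+DES- cells, 170 in smooth muscle-like and 14.8 in fibroblast-like cells, and 33.8% of the ACTA2+DES- cells held a UMI of it. NOTCH3 stood at 233, 283 and 33.8 CPM. NDUFA4L2, a mitochondrial complex subunit known from pericytes, stood at 165, 157 and 27.3 CPM. The channel genes ABCC9 (a sulfonylurea receptor) and KCNJ8 (its potassium channel partner) were detected in 57.4% and 47.3% of the cells, against 5.94% and 6.31% of the other kept cells. PDGFRB was sparse at 23.4 CPM and a UMI in 15.2% of the cells.

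The stellate genes were mixed. LRAT, which esterifies vitamin A for storage, and GFAP, an intermediate filament of quiescent stellate cells, had 0 UMIs in the 624 cells, which allows a share of cells with a UMI of up to 0.481% and does not limit the cells that express them. FABP4, a fatty acid-binding protein, stood at 377 CPM in the ACTA2+DES- cells and at 51.3 CPM in other kept cells. The duct keratin KRT19 stood at 711 CPM, above smooth muscle-like (23.9) and fibroblast-like cells (38.5). Of the 10 quiescent stellate genes 8 could be tested against the reference classes, by the edgeR tests described further on. Against smooth muscle-like cells 2 were higher and 2 lower, beside 2.74% and 4.58% of all genes. Against fibroblast-like cells 2 were higher and 1 lower, beside 7.91% and 7.12% of all genes. Thinning draws each cell down to 3000 UMIs, and the rule is then applied again, so the thinned cells are not the same set. Cells that fall below the minima for ACTA2, TAGLN or MYLK drop out, and cells that lose their ACTG2 or DES UMIs can enter. After thinning, 0 of 5 were higher and 2 lower than in smooth muscle-like cells, where 68 of all 1886 thinned genes were higher and 104 lower. Against fibroblast-like cells 3 were higher and 1 lower, where 365 of all 2752 thinned genes were higher and 422 lower. Of the activated stellate genes, 3 of 14 were higher and 0 lower than in smooth muscle-like cells (2 and 0 of 10 after thinning). Against fibroblast-like cells 2 of 11 were higher and 4 lower (1 and 5 of 9 after thinning). The shares over all genes are the ones just given. ADIRF, an adipogenesis-related factor, was lower than in smooth muscle-like cells (log2 -1.96) and higher than in fibroblast-like cells (3.41). The rule also took in cells with epithelial RNA. The summed duct list stood at 3276 CPM in the ACTA2+DES- cells and at 1811 in all other kept cells. The mesothelial list stood at 485 against 105 CPM and the Schwann list at 155 against 70.6. The acinar, endocrine, endothelial, immune and erythroid lists stood lower than in all other kept cells.

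The values around the limits of the rule differed by gene. The 110 cells with exactly 2 UMIs of ACTA2 had 782 CPM of CALD1 and 1582 of KRT19, and the 224 cells left out for holding a single ACTA2 UMI had 471 and 1812. The 223 cells with exactly 1 MYLK UMI had 1243 CPM of CALD1 and 1171 of KRT19, and the 248 without MYLK had 749 and 1588. At these limits the cells held less CALD1 and more KRT19 than the ACTA2+DES- cells as a whole. The TAGLN limit differed, with 1126 CPM of CALD1 and 104.7 of KRT19 in the 58 cells with exactly 2 TAGLN UMIs, and 1668 and 134 in the 59 left out for holding 1. At the limit with muscle, the 294 cells left out for 1 DES UMI, without ACTG2, had 306 CPM of RGS5 and 223 of MYH11 (smooth muscle myosin heavy chain), and the 92 left out for 1 ACTG2 UMI had 708 of MYH11, while the ACTA2+DES- cells had 159.

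The ACTA2+DES- cells were not uniform, and RGS5 and PDGFRA were seldom detected in the same cell. RGS5, PDGFRA and EPCAM were picked after the values had been seen, so splitting the cells by them is a description with no test. RGS5 was detected in 211 cells and PDGFRA (a growth factor receptor of fibroblasts) in 141, and only 3 of the 349 cells with either held both. After each cell was thinned to 3000 UMIs and the rule applied again, 476 cells passed. Of these, 150 held RGS5, 32 held PDGFRA and 0 held both, which does not limit the cells that express both at this depth. In the smooth muscle-like class, 636 cells held RGS5, 275 held PDGFRA and 15 held both. The cells were then put in 4 sets: 84 with EPCAM (an epithelial adhesion molecule), then 130 with PDGFRA, 200 of those left with RGS5 and 210 with none of the 3 genes. Of the 84 cells with EPCAM, 11 also held PDGFRA and 8 RGS5, and these stayed in the EPCAM set.

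Several pericyte genes were highest in the RGS5 set. NOTCH3 stood at 514 CPM in it, against 90.7 in the PDGFRA set, 32.9 in the EPCAM set and 437 in the remaining set. NDUFA4L2 stood at 521, 64.3, 11.7 and 175 CPM. HIGD1B, a mitochondrial protein gene restricted to pericytes in several tissues, stood at 221, 0, 4.11 and 52.0 CPM. In each of these, the remaining set lay nearer to the RGS5 set than the PDGFRA set did. EDNRB followed at 313, 27.1, 20.5 and 175 CPM, and FABP4 at 1273, 8.04, 26.4 and 488 CPM.

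The PDGFRA set carried the fibroblast genes. COL1A1, the main fibrillar collagen chain, stood at 13458 CPM in it, against 425 in the RGS5 set, 571 in the EPCAM set and 3180 in the remaining set. DCN (decorin, a small proteoglycan) stood at 5130, 303, 285 and 1016 CPM in the same order. DLK1, a membrane ligand of fetal mesenchyme, stood at 3192, 58.8, 174 and 693 CPM. THY1 did not divide them, at 244 CPM in the PDGFRA set and 239 in the RGS5 set, nor did MGP, at 7969 and 7036 CPM.

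The EPCAM set was deeper than the others and carried epithelial keratins. Its median was 19956 UMIs per cell, against 4781 in the RGS5 set, 9348.5 in the PDGFRA set and 4583.5 in the remaining set. KRT19 stood at 2106 CPM and KRT18 at 1130 in it, and CALD1 at 502, while CALD1 stood between 1230 and 3023 in the other sets. With likely doublets left out, at 0.8% per 1000 barcodes, 588 of the 624 cells remained, and 525 held no UMI of PTPRC, EPCAM and PLVAP.

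**Figure D1:**
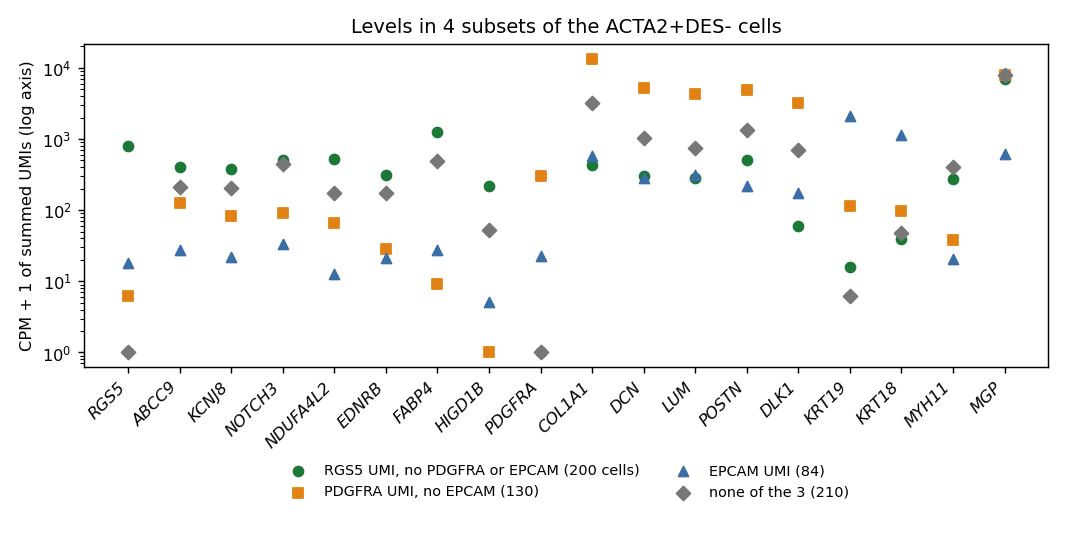
CPM + 1 of summed UMIs on a log axis in the 4 sets of ACTA2+DES- cells (200 with RGS5, 130 with PDGFRA, 84 with EPCAM and 210 with none). NOTCH3, NDUFA4L2, HIGD1B and FABP4 are highest in the RGS5 set, COL1A1, DCN and DLK1 in the PDGFRA set and KRT19 in the EPCAM set.

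Against the smooth muscle-like cells of the same animals, the ACTA2+DES- cells had less of every contractile gene tested. Sums per animal were compared in the 9 animals with at least 20 ACTA2+DES- cells, with animal as a block in edgeR's quasi-likelihood test and Benjamini-Hochberg adjustment, and 457 of 6242 genes (7.32%) passed, 171 higher (2.74%) and 286 lower (4.58%). Of these animals only WT replicate 3 at 120 days and WT replicate 2 at term were not CFTR-/-. No non-CF fetus of 80 days was among them, so the class comparisons describe mostly CFTR-/- animals. All 16 contractile genes tested were lower, with a median log2 difference of -1.72 against 0.02 over all genes. ACTG2 and DES, which divide the classes, belong to the same muscle programme, so this list is not independent of the rule. MYH11 had a mean of 215 CPM (45.4 to 693) in the ACTA2+DES- cells and 1794 (662 to 3577) in smooth muscle-like cells, and it was lower by a log2 difference of -3.32 (adjusted p = 0.00013 by edgeR) or -2.10 after thinning. CNN1 (calponin) differed by -3.47 and PLN (phospholamban, which slows calcium reuptake) by -2.22.

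The pericyte list did not separate these classes in the same way. Of 11 pericyte genes tested, ANPEP was higher, CSPG4 (the NG2 proteoglycan) and MCAM (an adhesion molecule) were lower, and the list median was -0.27. RGS5 differed by -0.27 with an edgeR adjusted p of 0.74. Depth differed between the classes, with a median of 7570 UMIs in smooth muscle-like cells, and after thinning 3 of 8 pericyte genes were higher in the ACTA2+DES- cells and 0 lower, beside 68 higher and 104 lower of all 1886 genes then tested. These were ABCC9 (log2 0.76), NDUFA4L2 (1.25) and THY1 (1.25). EDNRB moved likewise, from 131 against 113 CPM (log2 0.11, edgeR adjusted p = 0.91) to 205 against 107 CPM after thinning (log2 1.02, SE 0.25, edgeR adjusted p = 0.011). The rule was applied again to the thinned counts, so the classes compared hold other cells than before. Cells left out for 1 DES UMI, which can enter in this way, had 212 CPM of EDNRB and 306 of RGS5. Their part in these shifts was not tested.

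Outside the lists, MFAP5, a microfibril protein, was higher by a log2 difference of 2.38, SEMA3C (a secreted guidance protein) by 1.90 and C3 (complement component 3) by 1.66. Of 2 endothelial genes tested, CLEC3B (tetranectin) was higher, by 2.16, and 0 were lower. PDGFRA stood at a mean of 86.9 against 36.8 CPM (log2 1.43, edgeR adjusted p = 0.033). Among the lower genes were KCNA5, a voltage-gated potassium channel, at -2.60, and TCAP, a sarcomere protein, at -2.50. Of 8 duct genes tested, 7 were higher, and none of that list was left to test after thinning. The summed duct level was 3276 CPM in the ACTA2+DES- cells. It was 174 CPM in the different set of cells that passed the rule after thinning.

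Against fibroblast-like cells, the same 9 animals gave 937 of 6233 genes (15%), 493 higher (7.91%) and 444 lower (7.12%). Contractile genes were higher, 11 of 12 tested, with a median log2 difference of 1.54 against 0.02 over all genes, and fibrillar and stromal matrix genes were lower, 10 of 15, with a median of -1.14. Here too the rule chose contractile cells, and the fibroblast rule chose collagen. RGS5 had a mean of 187 against 88.02 CPM (log2 2.64, edgeR adjusted p = 0.043), NOTCH3 differed by 2.54 and NDUFA4L2 by 2.22, and of the 11 pericyte genes tested 4 were higher and 1, ANPEP, was lower, with a median of 0.70. Of 8 duct genes 3 were higher, with a median of 2.03, while after thinning the 1 that could be tested was lower (log2 -2.15). ANGPT2, the vessel-destabilizing angiopoietin, was higher by 3.35 and TRDN (triadin, of the calcium release complex) by 5.15. APOD (apolipoprotein D) was lower by -5.03, RSPO3 (a Wnt-enhancing ligand) by -4.20 and DLK1 by -2.76. MGP did not pass (log2 -0.50, edgeR adjusted p = 0.27).

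**Figure D2:**
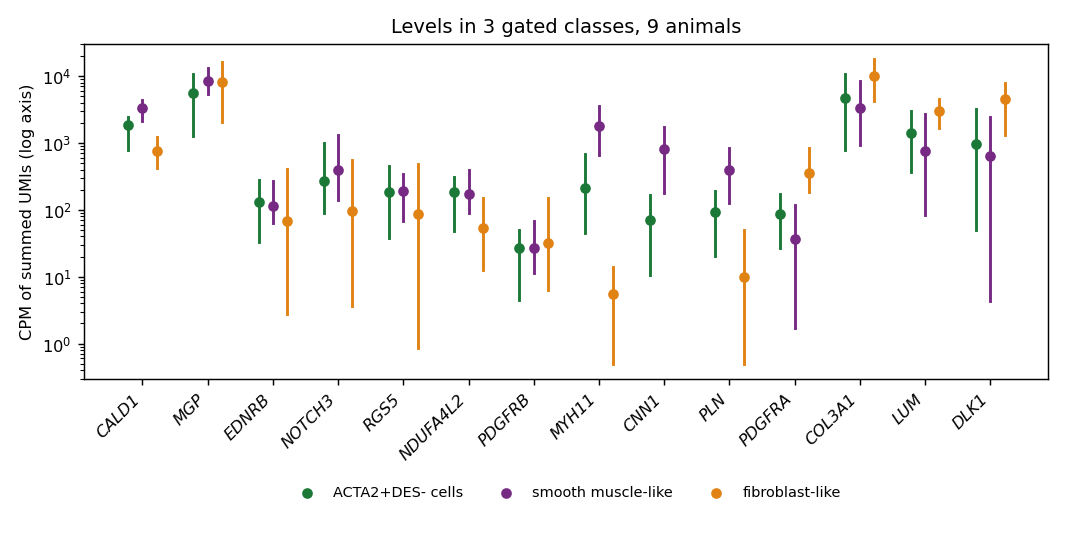
Mean CPM (point) and lowest to highest value (line) over 9 animals in ACTA2+DES-, smooth muscle-like and fibroblast-like cells, on a log axis with lowest values of 0 drawn at 0.5. MYH11 has a mean of 215 CPM in ACTA2+DES- and 1794 in smooth muscle-like cells, and CNN1 has no fibroblast-like point because it was not tested there.

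The share of ACTA2+DES- cells varied widely between animals of 1 group and no group difference passed its test. In the non-CF group at 80 days the share of kept cells was 0.774% ± 0.203 (SD, n = 4), and in the cloned CFTR-/- fetuses it was 0.676%, 1.07% and 1.34%, a mean of 1.03% ± 0.333. At 120 days the WT fetuses had 0.458%, 0.308% and 1.03%, the cloned CFTR-/- fetuses 0.931%, 0.793%, 4.14% and 0.227%, and the naturally bred CFTR-/- fetuses 0.384% and 0.334%. At term the WT lambs had 0.0924%, 0.555%, 0.0924% and 0.432%, and the CFTR-/- lambs 0.375%, 3.05% and 1.26%.

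At each age at least 1 CFTR-/- animal lay inside the range of its controls. The highest share, in cloned replicate 3 at 120 days, came from the 39 ACTA2+DES- cells among 943 kept cells (95% exact binomial interval 2.96% to 5.61%, counting error only). The difference between CFTR-/- and WT was 0.253 percentage points at 80 days, 0.923 for cloned and -0.239 for naturally bred fetuses at 120 days, and 1.27 at term. The WT and non-CF shares differed by -0.176 points between 120 and 80 days and by -0.306 points between term and 120 days. Over 8 exact two-sided permutation tests the lowest p was 0.171, for CFTR-/- against WT at term, and adjusted p-values ran from 0.640 to 1. The smallest two-sided p these designs allow is 0.0571 for 3 against 4 animals. It is 0.133 for cloned against naturally bred fetuses and 0.2 for naturally bred fetuses against WT. Each lies above the threshold, so even fully separated groups could not have passed.

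Depth moves these shares, so each cell was also thinned to 3000 UMIs, which left 69249 cells and 476 that passed the rule, with 10261 shallower cells left out. The thinned shares at term ran from 0 to 0.351% in WT and from 0.305% to 3.17% in CFTR-/- lambs, a difference of 1.34 points (exact permutation p = 0.114). The lowest thinned p was 0.0571, for WT at term against WT at 120 days, with a difference of -0.448 points (exact permutation). This is the smallest p the design allows. Every thinned WT share at term lay below every one at 120 days (0.489% to 0.894%). The thinned shares of the cloned 120-day fetuses ran from 0.162% to 6.54%. With cloned replicate 3 left out, the difference between cloned fetuses at 120 and 80 days turned from 0.494 to -0.377 points, and the difference between cloned CFTR-/- and WT at 120 days fell from 0.923 to 0.0518 points.

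**Figure D3:**
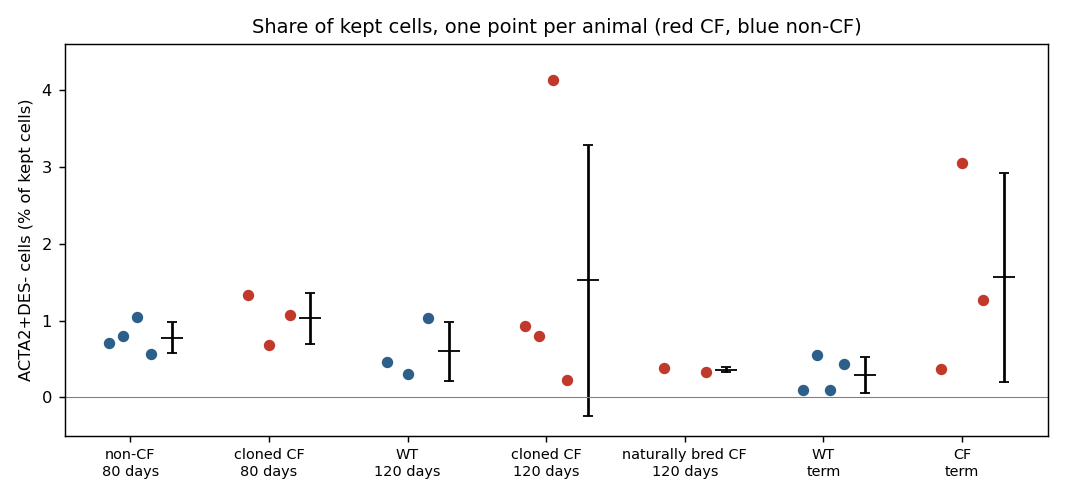
ACTA2+DES- cells as a percent of kept cells, 1 point per animal in 7 groups, with the mean ± SD as a black bar. The cloned CFTR-/- group at 120 days spans 0.227% to 4.14% and the CFTR-/- group at term 0.375% to 3.05%, and the ranges of all CFTR-/- groups overlap those of their controls.

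The makeup of the ACTA2+DES- cells differed between ages. RGS5 was detected in 17.6% to 25.0% of an animal's ACTA2+DES- cells at 80 days (median 20.0%, n = 7 animals with at least 10 such cells), in 20.0% to 61.4% at 120 days (median 43.8%, n = 7) and at term in 40.0%, 30.6% and 15.4% of those of CFTR-/- replicates 1 to 3 and in 47.2% and 46.2% of those of WT replicates 2 and 4. PDGFRA went the other way, at 38.9% to 60.0% at 80 days (median 44.4%), 0 to 53.3% at 120 days (median 16.7%) and 0 to 11.5% at term (median 11.3%). The 80-day and term ranges of PDGFRA did not overlap.

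Because the genes were picked after the values had been seen, these shares are a description with no test. The mean RGS5 share was 21.5 percentage points higher at 120 than at 80 days, and the mean PDGFRA share fell by 40.8 points from 80 days to term. Among the cells that passed the rule after thinning, a different set, these differences were 17.8 points for RGS5 and -4.64 points for PDGFRA. Depth moved with age: the ACTA2+DES- cells had a median of 9022 UMIs at 80 days against 4978 at 120 days and 5605 at term. After thinning, the RGS5 shares overlapped, at 6.67% to 41.7% at 80 days (n = 5) and 25.7% to 60.6% at 120 days (n = 6). Thinned PDGFRA shares overlapped too, at 0 to 26.7% at 80 days (n = 5) and 0 to 15.4% at term (n = 4). EPCAM was detected in 48.1% of the ACTA2+DES- cells of CFTR-/- term replicate 3, whose median was 11560 UMIs. Of its cells that passed the rule after thinning, 2.56% held EPCAM.

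**Figure D4:**
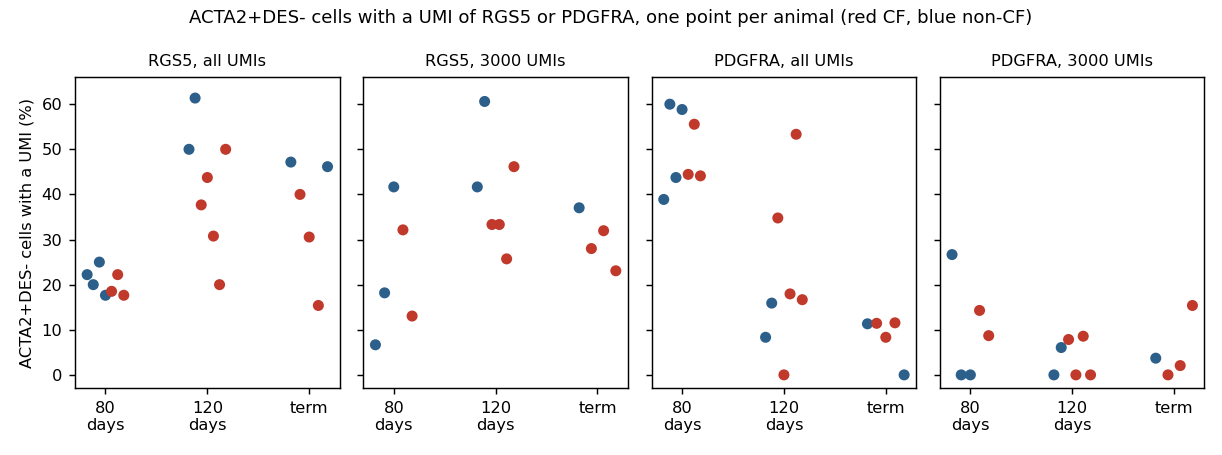
Percent of an animal's ACTA2+DES- cells with a UMI of RGS5 or PDGFRA at 80 days, 120 days and term, 1 point per animal with at least 10 such cells, from all UMIs and after thinning to 3000 UMIs. With all UMIs PDGFRA lies at 38.9% to 60.0% at 80 days and at 0 to 11.5% at term; after thinning the ages overlap for both genes.

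Gene levels changed most between 80 days and term. Summed UMIs of the 19 animals with at least 10 ACTA2+DES- cells were fitted together over 4368 genes, and age contrasts gave equal weight to the genotypes. These age contrasts across genotypes were added after the values had been seen. With edgeR's quasi-likelihood test, 54 genes (1.24%) differed between 120 and 80 days, 35 higher (0.801%) and 19 lower (0.435%), a count that was 0 with the cells without PDGFRA, EPCAM and KRT19 (6 against 2 animals) and 3 without the 2 HZ fetuses. Between term and 120 days 104 genes (2.38%) differed, 64 higher (1.47%) and 40 lower (0.916%). Between term and 80 days 685 genes (15.7%) differed, 350 higher (8.01%) and 335 lower (7.67%). Among the CFTR-/- animals age also came with breeding and labelled sex. All of them were cloned males at 80 days, while replicates 1 and 2 at term were naturally bred females. With labelled sex as a term, estimated from the CFTR-/- lambs at term alone, the counts were 21, 193 and 577 in the same order.

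The adjacent-age counts rested on few animals. Without WT replicate 3 at 120 days, the counts were 4 for 120 against 80 days and 2 for term against 120 days, and without WT replicate 1 they were 11 and 22. The first count was 33 without non-CF replicate 2, 20 without non-CF replicate 3, 34 and 22 without CFTR-/- replicates 1 and 2 at 80 days, 85 without CFTR-/- replicate 1 at 120 days, and 35 and 16 without the naturally bred replicates 5 and 6. The second was 46 and 24 without WT replicates 2 and 4 at term, 64 without CFTR-/- replicate 2 at term, and 36 and 58 without the naturally bred replicates. The count for term against 80 days stayed between 344 and 649, and the 344 came from leaving out WT replicate 2 at term.

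Pericyte genes and genes shared with quiescent stellate cells rose to term in part. Of 10 pericyte genes tested between 80 days and term, 3 rose and 0 fell, with a median log2 change of 0.58 against -0.02 over all genes. HIGD1B was at 0 CPM in all 80-day animals but CFTR-/- replicate 1, where it was 4.54 CPM. At term it stood at 166 and 122 CPM in WT replicates 2 and 4 and at 149.6, 88.1 and 121.5 CPM in CFTR-/- replicates 1 to 3. All 5 term animals were above every 80-day animal, and the log2 change was 7.26 (SE 0.73, adjusted p = 2.1e-05 by edgeR). At 120 days HIGD1B ranged from 0 to 76.0 CPM, and the change from there to term was 3.86 (SE 0.58, adjusted p = 0.0046 by edgeR).

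RGS5 had a median of 67.8 CPM at 80 days (38.6 to 317), a mean of 267 at 120 days (120 to 446) and at term 274 and 159 CPM in the WT and 164, 120.5 and 102 CPM in the CFTR-/- lambs. The ranges of 80 days and term overlapped through non-CF replicate 1. The log2 change was 1.98 (SE 0.37, adjusted p = 0.014 by edgeR) from 80 to 120 days and 1.55 (SE 0.38, adjusted p = 0.0096 by edgeR) from 80 days to term, and after thinning the latter was 1.12 with an edgeR adjusted p of 0.19. ENPEP, the aminopeptidase that cleaves angiotensin II, was the other pericyte gene that rose, with a log2 change of 2.30 (edgeR adjusted p = 0.020). The other pericyte genes did not pass, among them NOTCH3 (log2 -0.32), ABCC9 (0.60), KCNJ8 (0.56) and NDUFA4L2 (0.96).

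FABP4 had 0 UMIs in the ACTA2+DES- cells of all 7 animals at 80 days, between 0 and 45.6 CPM at 120 days and, at term, 477 and 393 CPM in the WT and 1290, 1473 and 95.9 CPM in the CFTR-/- lambs. Every term animal was above every younger one. The pooled term level of 825 CPM was at least 408-fold higher than the level that 3 UMIs would have given over the 80-day group, 2.02 CPM, and the fitted log2 change from 120 days to term was 5.68 (SE 0.85, adjusted p = 0.0054 by edgeR). FABP4 was high in other classes too at term, where its median was 477 CPM in ACTA2+DES-, 875 in smooth muscle-like, 199 in fibroblast-like and 152 in all other kept cells. HIGD1B had medians of 122, 141, 4.9 and 2.8 CPM in the same classes at term.

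Of 7 quiescent stellate genes tested, 3 rose and 2 fell from 80 days to term, with a median log2 change of 0.09. The risers were RGS5, FABP4 and ADIRF (log2 2.95, edgeR adjusted p = 0.0018). Of the genes that fell, RBP4, the serum retinol carrier, changed by -2.85 (edgeR adjusted p = 0.00078) and missed the threshold after thinning.

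Of 9 genes of vasoactive receptors and vessel tone tested between 80 days and term, EDNRB rose and 0 fell, beside 8.01% of all genes that rose, with a median log2 change of 0.57. EDNRB ranged from 33.5 to 158 CPM at 80 days and stood at 281 and 56.2 CPM in the WT and 167, 171.5 and 33.3 CPM in the CFTR-/- lambs at term, so that the groups overlapped. Its log2 change was 1.65 (SE 0.44, adjusted p = 0.017 by edgeR). With labelled sex as a term, estimated from the CFTR-/- lambs at term alone, it was 0.62 (adjusted p = 0.36 by edgeR).

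Contractile genes rose in part. Of 13 tested, 5 rose and 0 fell from 80 days to term, with a median log2 change of 0.90. MYL6, the non-muscle and smooth muscle myosin light chain, rose from 1225 CPM (751 to 1484, n = 7) to 3054 CPM (2563 to 4019, n = 5), without overlap (log2 1.69, SE 0.22, adjusted p = 6.7e-05 by edgeR). The tropomyosins TPM1 (log2 1.22) and TPM2 (1.64), MYH11 (1.30) and PLN (1.93) also passed, and each of these 4 missed the threshold after thinning. MGP rose from 2473 CPM (1263 to 3551) at 80 days to 9621 CPM (5060 to 22932) at 120 days without overlap (log2 1.93, SE 0.40, adjusted p = 0.024 by edgeR). It was 5232 CPM (2060 to 10466) at term (log2 1.47 from 80 days, adjusted p = 0.021 by edgeR), a change that missed the threshold after thinning. CALD1 did not pass (log2 0.86, edgeR adjusted p = 0.077).

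Matrix genes fell. Of 15 fibrillar and stromal matrix genes tested, 1 rose and 9 fell from 80 days to term, with a median log2 change of -1.90, and of 14 activated stellate genes, many of them the same collagens, 2 rose and 9 fell, with a median of -2.15. COL1A1 had a median of 8193 CPM at 80 days (6668 to 18132) and stood at term at 487 and 215 CPM in the WT and 2463, 826 and 601 CPM in the CFTR-/- lambs. No term animal reached the lowest 80-day value, and the log2 change was -3.33 (SE 0.65, adjusted p = 0.0021 by edgeR). POSTN (periostin, a matrix protein of remodelling tissue) fell from 4306 CPM (2792 to 6581) to 258 CPM (18.7 to 439), a log2 change of -3.91 (SE 0.61, adjusted p = 0.00035 by edgeR). COL3A1 fell by 2.82 on the log2 scale, DCN fell by 2.24 and PDGFRA fell by 2.06.

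The genes that rose in these lists were MGP, TIMP1 and IL6. TIMP1, an inhibitor of matrix metalloproteinases, rose from a mean of 583 to 1472 CPM (log2 1.77, edgeR adjusted p = 0.0019). IL6 passed upward with a log2 change of 4.73, but 697 CPM of it came from WT term replicate 2, and without that animal the change was -0.32. The basement membrane list was nearly level, with 0 risers and 1 faller of 12 and a median of -0.13, and COL4A1, its collagen IV chain, changed by 0.14 (edgeR adjusted p = 0.77).

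Genes of fetal growth fell too. Of 10 tested, 1 rose and 7 fell from 80 days to term, with a median log2 change of -2.33. MEST, an imprinted gene of embryonic mesoderm, had a median of 456 CPM at 80 days (379 to 759), 82.2 CPM at 120 days (30.4 to 116) and 3.38 and 28.1 CPM in the WT and 11.7, 38.2 and 10.2 CPM in the CFTR-/- lambs at term. The 80-day animals lay above all later ones, and the log2 change was -2.47 (SE 0.36, adjusted p = 0.0047 by edgeR) by 120 days and -4.64 (SE 0.46, adjusted p = 1.2e-05 by edgeR) by term. DLK1 fell from 2464 CPM (1392 to 3401) to 228 CPM (0 to 467), a log2 change of -4.15 (SE 0.49, adjusted p = 3.7e-05 by edgeR) that was -2.09 after thinning (adjusted p = 0.087 by edgeR). IGF2, the fetal insulin-like growth factor, fell later, with a log2 change of 0.04 from 80 to 120 days and of -1.41 from 120 days to term (adjusted p = 0.038 by edgeR). IGFBP7 was the member that rose, by 0.93.

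**Figure D5:**
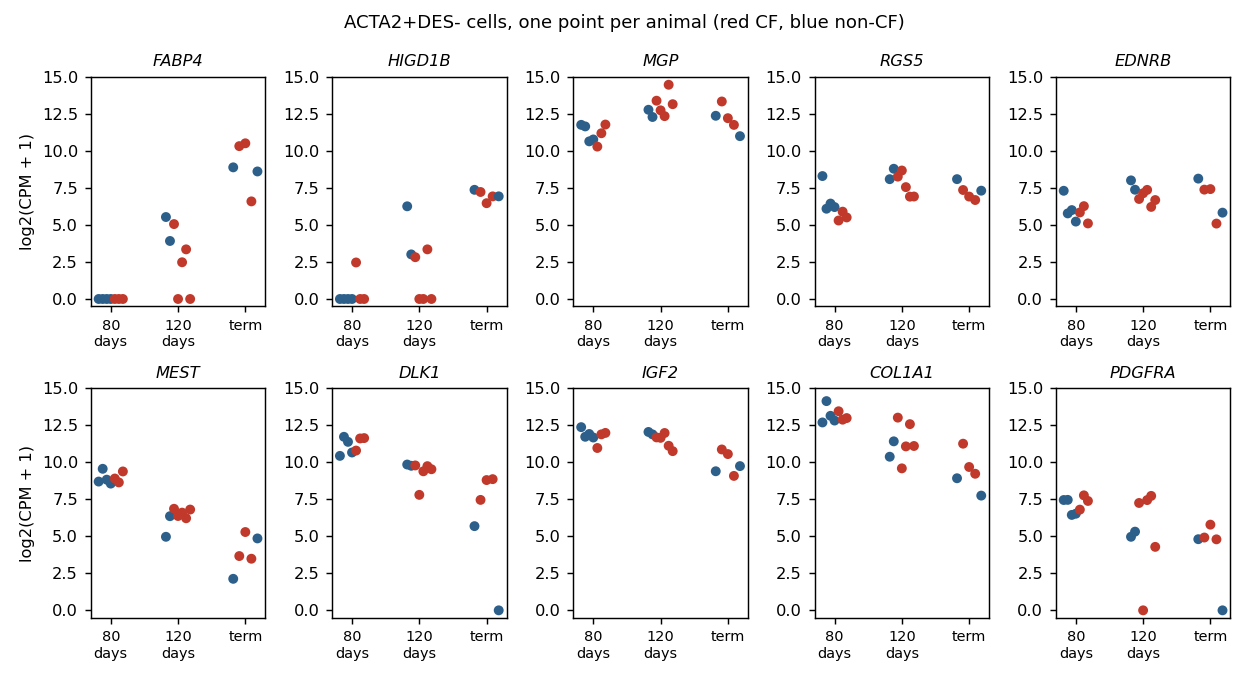
Log2(CPM + 1) per animal in ACTA2+DES- cells at 80 days (n = 7), 120 days (n = 7) and term (n = 5) for 5 genes that were higher and 5 that were lower at term. FABP4 is at 0 in all 80-day animals, and MEST, COL1A1 and PDGFRA do not overlap between 80 days and term.

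Outside the lists, the largest separated changes from 80 days to term included S100A4, a calcium-binding protein of motile mesenchyme, from 18.9 CPM (0 to 78.2) to 924 CPM (84.3 to 2151). PROCR, the protein C receptor, rose from 3.89 to 209.9 CPM (log2 6.02, edgeR adjusted p = 5.2e-05), and the rise was already 4.63 by 120 days. GPX3 (a secreted glutathione peroxidase) rose by 4.72, KLF9 (a glucocorticoid-induced transcription factor) by 4.01 and MUSTN1 (a small nuclear protein of musculoskeletal tissue) by 3.91. FKBP5, another glucocorticoid-responsive gene, rose between 120 days and term, from 13.6 to 172 CPM (log2 4.09, edgeR adjusted p = 0.0033). In the other direction, CRABP1, a retinoic acid-binding protein, fell from 614 to 7.76 CPM. NRK, a kinase known from fetal tissue and placenta, fell from 506 to 8.32 CPM, and GAP43, a growth-cone protein, from 73.3 to 0.999 CPM. EGFL6 and COL6A6, both extracellular matrix proteins, were at 0 in all 5 term animals, after 50.9 CPM (14.9 to 109.9) and 43.6 CPM (2.27 to 121) at 80 days. Of the 9 angiogenic ligands tested, only ANGPT1, the vessel-stabilizing angiopoietin of mural cells, passed between 80 and 120 days, from 42.7 to 134 CPM (log2 1.90, edgeR adjusted p = 0.024). Between 80 days and term 0 of these 9 rose and 3 fell, and from 120 days to term 0 rose and 1 fell. MDK (midkine, a growth factor of developing tissue) fell between 80 and 120 days, from 607 to 127 CPM (log2 -2.21).

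RNA of other pancreatic cell types moved with age in the same sums. The summed level of the acinar list was 102 to 5972 CPM at 80 days and 182 to 41823 CPM at term, and 5 of its 10 tested genes passed upward. The duct list ran from 27.1 to 2782 CPM at 80 days and from 481 to 12122 CPM at term, with 4 of 11 upward. The endocrine list ran from 188 to 617 CPM at 80 days and from 18.7 to 108 CPM at term, with CHGB and SCG2 at 0. CHGA was at 0 because the rule left out cells with it, which is no result. Of 4 tested genes GCG (glucagon) fell from 189 to 7.27 CPM and SST (somatostatin) fell from 52.1 to 0.719 CPM, while PPY (pancreatic polypeptide) rose from 2.06 to 29.2 CPM. The Schwann list ran from 73.3 to 547 CPM at 80 days and from 37.5 to 105 CPM at term, and its 1 tested gene passed downward (log2 -6.28). The erythroid list ran from 0 to 11.8 CPM at 80 days and from 20.5 to 62.6 CPM at term, with ALAS2, HBM, SLC4A1 and HEMGN at 0, and the immune list had medians of 7.44 and 38.1 CPM. The handling stress genes ran from 16059 to 22804 CPM at 80 days and from 7129 to 16056 CPM at term. Their part in the other age changes was not tested. With the 393 ACTA2+DES- cells that held no UMI of PDGFRA, EPCAM and KRT19, 110 of 3206 genes passed between 5 term and only 2 80-day animals, in place of 685 of 4368 between 5 and 7, and FABP4, HIGD1B, MEST and COL1A1 were among the genes that still passed, both then and after thinning.

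Few genes passed for a difference in age change between ACTA2+DES- and smooth muscle-like cells. A class-by-age term in edgeR, added after the values had been seen and with animal as a block (7, 7 and 5 animals at the 3 ages), found 4 of 6279 genes (0.0637%) whose change from 80 days to term differed from that of smooth muscle-like cells and no gene of the lists above passed. MDK (log2 4.08, SE 0.57, adjusted p = 0.0017 by edgeR) and A2M (alpha-2-macroglobulin, 5.14, SE 0.85, adjusted p = 0.0090 by edgeR) fell less or rose more in the ACTA2+DES- cells. SPARCL1, a matricellular protein (-3.44, SE 0.52, adjusted p = 0.0023 by edgeR), and FAT4, a cadherin (-1.54, SE 0.28, adjusted p = 0.017 by edgeR), did the opposite. A p that misses the threshold does not show that the other genes changed alike, and 452 had an unadjusted p under 0.05.

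Against fibroblast-like cells, 160 of 7342 genes (2.18%) differed in their change, 38 toward the ACTA2+DES- cells and 122 away. Of 16 fibrillar and stromal matrix genes, 10 fell further or rose less in ACTA2+DES- cells, among them ELN (elastin, -4.44), COL1A2 (-2.73), MGP (-2.34) and COL3A1 (-1.96). Of 12 basement membrane genes 1 went toward and 5 away, and of 12 activated stellate genes 0 and 4. DLK1 (-2.37), MEST (-2.25) and IGF1 (-3.58) did so among 4 of 12 fetal growth genes. COL1A1 chose the fibroblast-like cells and was not tested, and its medians were 12356 and 4160 CPM there at 80 days and term, against 8193 and 601 CPM in ACTA2+DES- cells. MYH11 (3.00) and TPM1 (1.45), of 14 contractile genes, went the other way.

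With edgeR and all groups in the fit, no gene passed between CFTR-/- and WT or non-CF animals within an age. With only the compared groups in the fit 4 passed at 80 days and, with at least 20 cells, 4 for cloned fetuses at 120 days, and with labelled sex as a term 24 passed for naturally bred fetuses at 120 days. With at least 20 cells, the WT arm was 1 animal at 120 days and 1 at term, so a count of 0 there says little. The counts were 0 at 80 days (197 at an unadjusted p under 0.05; 0 by DESeq2), for cloned CFTR-/- fetuses at 120 days (290 and 0 among 7384 genes in animals with at least 20 cells, 285 and 0 among 4368 with at least 10), for naturally bred fetuses at 120 days (362 and 0) and at term (330 and 1 with at least 20 cells, 320 and 7 with at least 10). Over all ages, a contrast added after the values had been seen, 0 genes passed between 11 CFTR-/- and 8 non-CF animals (444 at an unadjusted p under 0.05, DESeq2 not run). Without CFTR-/- replicate 1 at term this count was 57, and without replicates 2 and 3 at term it was 4 and 2, and without CFTR-/- replicate 6 at 120 days it was 1. Labelled sex differed between the groups, and with it as a term 96 genes passed. That term was estimated from the CFTR-/- lambs at term alone, where sex coincides with breeding, so it does not adjust for sex alone. At term, with at least 10 cells, the count was 20 without CFTR-/- replicate 1 and 1 each without CFTR-/- replicate 3, WT replicate 2 or WT replicate 4.

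The values of the mural genes in that contrast are given without a call. RGS5 had a mean of 152.5 CPM (38.6 to 411) in CFTR-/- and 212 CPM (67.8 to 446) in non-CF animals, a log2 difference of -1.20 (SE 0.30, unadjusted p = 0.00087 and adjusted p = 0.14 by edgeR). The ranges over all ages overlapped, and the highest values of both groups, 411 and 446 CPM, lay at 120 days. At 80 days, however, the 3 CFTR-/- fetuses (38.6 to 58.9 CPM) lay below all 4 non-CF fetuses (67.8 to 317 CPM), and at term 2 of the 3 CFTR-/- lambs lay below both WT lambs. Among animals with at least 10 ACTA2+DES- cells, RGS5 was detected in 30.8% to 43.8% of them in cloned CFTR-/- and 50.0% to 61.4% in WT fetuses at 120 days. At term it was detected in 15.4% to 40.0% in CFTR-/- and 46.2% to 47.2% in WT lambs. The share was 20.0% and 50.0% in the naturally bred CFTR-/- fetuses, and at 80 days the groups overlapped (17.6% to 22.2% and 17.6% to 25.0%). With fewer cells the ranges did not hold. Cloned replicate 4 at 120 days had 66.7% of 6 cells and WT replicate 2 had 50.0% of 6. WT term replicate 1 had 0% of 1 cell and replicate 3 had 100% of 3. These shares, too, are given with no test. The pericyte list had a median of -0.28 with none of 10 genes past the threshold, the contractile list -0.01, the activated stellate list 0.75 and the fibrillar matrix list 0.42, against 0.03 over all genes. EDNRB differed by -0.75 (adjusted p = 0.50 by edgeR), MGP by 0.42 (0.75) and DLK1 by 0.97 (0.31). At term DLK1 stood at a mean of 363 CPM (176 to 467) in CFTR-/- and 25.4 CPM (0 to 50.7) in WT lambs (log2 3.13, adjusted p = 0.41 by edgeR). The 3 CFTR-/- lambs were thus above both WT lambs with enough cells, without a passed test.

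No gene of the duct or mesothelial list passed over all ages. The duct list had a median log2 difference of 2.55 and the acinar list of -1.45 in the same contrast. The summed duct level ran from 279 to 12122 CPM in CFTR-/- and from 15.2 to 2002 CPM in non-CF animals. The mesothelial list, of which UPK3B was at 0, ran from 18.6 to 1659 CPM in CFTR-/- and from 0 to 54.2 CPM in non-CF animals, and its 1 tested gene had a log2 difference of 6.84 over all ages, without passing. At 80 days KRT19 was 305 CPM (183 to 499) in CFTR-/- and 29.5 CPM (0 to 61.1) in non-CF fetuses (log2 3.29, adjusted p = 0.92 by edgeR). These ranges did not overlap, and the part of this RNA in the other genotype values was not tested.

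In the remaining comparisons 3 genes passed. UNC50, a membrane protein of the secretory pathway, was at 25.1 CPM (23.5 to 27.5) in cloned and 120.3 CPM (83.6 to 157) in naturally bred CFTR-/- fetuses at 120 days (log2 -2.30, SE 0.38, adjusted p = 0.045 by edgeR), the 1 gene of 4368 (0.0229%). It missed the threshold when any 1 of the 5 fetuses was left out. TM4SF1 (a tetraspanin-like surface protein) was at 301.9 CPM (289 to 315) in WT at 120 days and 75.8 CPM (42.7 to 102) in non-CF at 80 days (log2 2.21, SE 0.34, adjusted p = 0.017 by edgeR), and SLC25A4 (the mitochondrial ADP/ATP carrier) at 191 and 53.4 CPM (log2 2.12, SE 0.37, adjusted p = 0.034 by edgeR), together 0.0458% of genes. Without non-CF replicate 2 1 gene passed, without WT replicate 1 there were 3, and without non-CF replicates 1, 3 or 4 or WT replicate 3 there were 0. Between WT at term and at 120 days 0 genes passed in edgeR (272 at an unadjusted p under 0.05 and 0 by DESeq2 with at least 20 cells, 411 and 17 with at least 10), and between cloned fetuses at 120 and 80 days 0 passed (506 and 3, or 633 and 54). With at least 10 cells, leaving out 1 animal gave 0 to 7 genes for the first of these, with the 7 without WT replicate 2 at term, and 0 to 41 for the second, with the 41 without CFTR-/- replicate 3 at term, an animal of neither group compared. With only the compared groups in the edgeR fit 17 and 10 genes passed, and with labelled sex as a term 6 and 25.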

How the data were processed

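Pancreas of 23 sheep was measured in 26 single-cell 3' libraries. The authors aligned the reads and made the deposited matrices of whole UMI counts per gene and cell with Cell Ranger 3.1.0, per the submitters' processing notes. Kept cells had over 200 and under 6000 genes and under 25% mitochondrial UMIs. Members and gene lists were chosen with earlier results of these data known, and 301 of 317 list genes, in 25 lists, were found. For 3 animals the paired libraries were, per the study, separate samples of the same animal. Their counts were summed for the gene tests, as were the counts of all cells of an animal, and their shares were averaged. Library sums ran from 7841217 to 171256169 UMIs, and a member sum of an animal with at least 10 members held 65805 to 862857, which sets the floor of each level. The genes of the rule and 89 ribosomal protein genes were not tested. Of 8432 features with a LOC identifier, 501 were given a RefSeq symbol by gene ID, and the others were tested but not named.

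Sums were fitted with edgeR 4.0.16 (R 4.3.3; TMM, filterByExpr, quasi-likelihood test, 7 groups, Benjamini-Hochberg threshold 0.05). The planned minimum of 20 members left 9 animals and some groups of 1 animal, whose spread is taken from the others, so a minimum of 10 (19 animals) carried the other comparisons. The p-values measure the spread between these animals. Shares were compared by exact permutation over animals (scipy 1.17.1). Named genes, beside the lists, were up to 10 in each direction with the largest change among those past the threshold whose animals did not overlap and whose higher group had at least 20 CPM. Doublets were scored with Scrublet (scanpy 1.11.5), whose automatic limit marked 0.0156% to 1.94% of cells. A fixed rate of 0.8% per 1000 barcodes was therefore used as an alternative. Other alternatives were DESeq2 1.42.0, RLE scaling, no count filter, purer members, 10% mitochondrial UMIs and each animal left out. Thinning to 3000 UMIs, with the rule applied again, was another. Labelled sex as a term, estimated from the CFTR-/- lambs at term alone, was the last. The fits were tested on simulated data. Some items are not reported here.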

Additional observations from a re-analysis of the deposited data

Results flagged for a closer look

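In 8 of 40 groups of animals tested, 1 animal's value lay far from the others by Dixon's ratio. Its chance rate of about 1 in 20 holds for normally spread values. Many of these values are 0 or rest on few UMIs, so the count cannot be set against that rate. At 80 days, non-CF replicate 1 had 317 CPM of RGS5 and 158 CPM of EDNRB, both far above the other 6 fetuses, non-CF replicate 2 had 18132 CPM of COL1A1, and CFTR-/- replicate 1 was the only fetus with HIGD1B, at 4.54 CPM. At 120 days, WT replicate 1 stood alone with 76.0 CPM of HIGD1B, and cloned CFTR-/- replicate 2 had 223 CPM of DLK1, far from the rest. At term, CFTR-/- replicate 1 had 2463 CPM of COL1A1 and WT replicate 4 had no PDGFRA UMI in its ACTA2+DES- cells, a share of 0.0%.

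The change from 80 days to term differed between ACTA2+DES- and smooth muscle-like cells in 4 genes, and between ACTA2+DES- and fibroblast-like cells in 160 genes, by the class-by-age term in edgeR.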

How the results depend on the processing

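The shares of kept cells turned sign in 6 of the 127 values. WT at 120 days against non-CF at 80 days was 0.000555 points after thinning, 3.19 as a share of contractile and fibroblast-like cells, and 0.151 without PDGFRA, EPCAM and KRT19. Cloned CFTR-/- at 120 against 80 days was -2.02 with ACTG2 and DES allowed and -0.377 without replicate 3. CFTR-/- against non-CF at 80 days was -0.0189 without PDGFRA, EPCAM and KRT19. Adjusted exact permutation p-values stayed between 0.213 and 1. Leaving out 1 animal gave 0.0978 to 0.429 for CFTR-/- at 80 days, 0.0518 to 1.35 for cloned and -0.385 to -0.0240 for naturally bred CFTR-/- against WT at 120 days, 0.291 to 1.59 for cloned against naturally bred, 0.525 to 1.86 for CFTR-/- at term, -0.391 to -0.0306 for WT at 120 days against non-CF at 80, -0.451 to -0.0902 for WT at term against 120 days, and -0.377 to 0.926 for cloned at 120 against 80 days.

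Counts of genes are given in the order CFTR-/- at 80 days, cloned against WT, naturally bred against WT, cloned against naturally bred, CFTR-/- at term, WT at 120 against non-CF at 80 days, WT at term against 120 days, cloned at 120 against 80 days, 120 against 80 days, term against 120 days and CFTR-/- over all ages. With no count filter they were 90, 7, 77, 93, 86, 145, 20, 116, 246, 355 and 198, because more low genes entered, and 1419 against smooth muscle-like and 1768 against fibroblast-like cells, with 124 and 324 for the class-by-age terms. After thinning, 2 genes passed for CFTR-/- at 80 days, 0 for cloned against naturally bred, 16 for WT at 120 against non-CF at 80 days, 1 for cloned at 120 against 80 days, 19, 22 and 204 for 120 against 80 days, term against 120 days and term against 80 days, 172 against smooth muscle-like cells, and 2 and 52 for the class-by-age terms. With only the compared groups in the fit, CFTR-/- at 80 days gave 4, cloned against WT 4 and WT at 120 against non-CF at 80 days 58, and with at least 10 cells WT at term against 120 days 17 and cloned at 120 against 80 days 10. Without PDGFRA, EPCAM and KRT19, cloned against WT gave 9, cloned against naturally bred 0, CFTR-/- at term 9 (10 with at least 10 cells), WT at 120 against non-CF at 80 days 0, WT at term against 120 days 27, 120 against 80 days 0 and term against 80 days 110. Labelled sex gave 24 for naturally bred against WT, 65 for cloned against naturally bred, 21, 193 and 96 for 120 against 80 days, term against 120 days and CFTR-/- over all ages. DESeq2 gave 0 for cloned against naturally bred, 1 for CFTR-/- at term, 48 for WT at 120 against non-CF at 80 days and 3 for cloned at 120 against 80 days. Without PTPRC, EPCAM and PLVAP, the counts were 0 for cloned against naturally bred, 1 for CFTR-/- at term with at least 20 cells and 8 with at least 10, 28 for WT at term against 120 days and 60 for cloned at 120 against 80 days with at least 10, 16 for WT at 120 against non-CF at 80 days, 134 and 194 for the adjacent ages, 5 for CFTR-/- over all ages and 242 for the fibroblast-like class-by-age term. Cloned against naturally bred gave 0 without likely doublets, with ribosomal genes kept and without mitochondrial genes, and CFTR-/- at term gave 1 with RLE scaling and without mitochondrial genes. Term against 120 days gave 193 without likely doublets. Without the 2 HZ fetuses, WT at 120 days against non-CF at 80 gave 0, 120 against 80 days 3 and term against 80 days 442. With no animal block, the class comparisons gave 70 and 393. Leaving out 1 animal gave 0 to 1 genes for CFTR-/- at term with at least 20 cells and 0 to 20 with at least 10, 0 to 57 over all ages, 0 to 3 for WT at 120 against non-CF at 80 days, 4 to 85, 2 to 154 and 344 to 649 for the pooled ages, 0 to 2 for cloned against naturally bred and 0 to 0 for CFTR-/- at 80 days, for cloned and naturally bred against WT and, with at least 20 cells, for cloned at 120 against 80 days. With at least 10 cells, cloned at 120 against 80 days gave 0 to 41 and WT at term against 120 days 0 to 7, while with at least 20 the latter had 1 animal a group and none could be left out. The cause of these shifts was not tested beyond the number of genes or animals that entered.

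No label ties equal replicate numbers of different groups to a shared litter or day. Per the study, the digestion enzyme and the kit version varied, without the libraries named, and neither was tested as a batch. Over 31 same-numbered pairs, deviations from the group means correlated from -0.211 to 0.261 (median -0.0236, 2 over 0.1), and over 122 other pairs the median was 0.0155, with 23 over 0.1. With the replicate block, cloned against naturally bred gave 0 genes, WT at 120 against non-CF at 80 days 0, 120 against 80 days 2, term against 120 days 20, term against 80 days 457 and CFTR-/- over all ages 1.

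The 130 gene results gave 2910 values under the alternatives, of which 2281 kept their call, 625 missed the threshold and 4 turned sign. These were NRK (2.03) and LRRC17 (0.047) between 120 and 80 days without PDGFRA, EPCAM and KRT19, IL6 (-0.32) without WT replicate 2 at term and CRIM1 (-0.20) after thinning, both between term and 80 days. The other omissions left IL6 at up to 5.68. Few cells per animal and their depth limit which low genes could be tested.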
